A study of Mus musculus with 21 samples.

Results

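The step from the 8-cell embryo to the blastocyst was described by comparing the 2 short-read libraries of 8-cell embryos with the 2 of blastocysts, gene by gene and isoform by isoform, and by setting the long-read transcripts of both stages side by side. These are 4 short-read and 2 long-read samples of the 21 in the series. Of the 10934 mouse genes that a transcript of the merged long-read transcriptome overlapped on the same strand, 10016 reached 1 TPM (the salmon transcript level, scaled for length and to a fixed total per library) in at least 2 of the 12 libraries from oocyte to blastocyst, and these were tested. Both stages came from crosses of inbred strains, with no genotype or treatment difference in the labels. The crosses were written as ♂DBA/2J × ♀C57/BL6J, while the protocol names the males as DBA/2N. The oocyte libraries, which enter the shared spread and the stage means, were labelled C57/BL6J and not as the cross. The females were superovulated with PMSG and hCG, and the embryos were taken from the oviduct and cultured in KSOM medium. The 8-cell embryos were collected 68 to 70 h and the blastocysts 94 to 96 h after hCG. Each sample was a pool of whole embryos, so a blastocyst library mixes the RNA of all its cell types, and fewer cells of a type cannot be told apart from less RNA per cell. The RNA was amplified as cDNA by the Smart-seq2 protocol. The 1 long-read pool of each stage was a mixture of the cDNA that also gave the short-read libraries, and so the long and the short reads of a stage are not independent samples.

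Between these stages the mouse embryo compacts, its outer cells become polar and form the trophectoderm, and its inner cells become the inner cell mass. The trophectoderm is an epithelium held together by keratin filaments, desmosomes and tight junctions, and it pumps fluid into the blastocoel cavity. The inner cell mass then separates into the epiblast, which keeps the pluripotency factors, and the primitive endoderm, which lays down basement membrane. Cdx2 is the textbook transcription factor of the trophectoderm, and Sox17 is one of those of the primitive endoderm.

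The 2 8-cell libraries resembled each other more than the 2 blastocyst libraries did. Across the tested genes, which are not independent replicates, Pearson's r of log2(TPM + 1) was 0.963 within the 8-cell pair, 0.879 within the blastocyst pair and 0.791 to 0.877 between the stages. Blastocyst library 2 stood apart, with 13139 transcripts at 1 TPM or more against 15468 to 15841 in the other 3 libraries, and with 14.4% of all TPM in its top 10 transcripts against 6.34% to 8.06%. Genes with 1 TPM or more numbered 8021 in that library and 8565 to 8642 in the others. The TPM values hold no read counts, so no counting error is given for them. The paper lists the total sequences of each library, with more for blastocyst replicate 2 than for blastocyst replicate 1. How depth bears on the numbers of transcripts and genes was not tested. Of 13 granulosa, cumulus and blood markers, 2 were tested and 8 had no merged transcript, and of these Hba-a1, an adult alpha-globin gene, stood at 31.3 and 40.5 TPM in the 8-cell pair and at 5.69 and 5.60 TPM in the blastocyst pair without being called. The summed TPM of 6 tested sperm markers was 6.21 and 19.3 at the 8-cell stage and 4.57 and 4.27 at the blastocyst stage.

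In the blastocyst 151 genes (1.51% of those tested) were higher and 154 genes (1.54%) were lower than in the 8-cell embryo at an adjusted p under 0.05 (limma, Benjamini-Hochberg). The changes called were large, with differences of log2(TPM + 1) from 1.81 to 7.91 among the higher genes (median 3.32, median SE 0.66) and a median of -3.40 (median SE 0.71) among the lower genes. In all 305 called genes both libraries of one stage lay above both libraries of the other, which held for 47.8% of all tested genes. The median difference of all tested genes was -0.14. The lowest blastocyst TPM was at least 10 times the highest 8-cell TPM in 62 of the higher genes, and the reverse held in 69 of the lower genes. An unadjusted p under 0.05 was found for 1451 genes (14.5%). The calls rest on a spread shared by the 12 libraries from oocyte to blastocyst. A fit on the 4 libraries of these stages alone gave 0 calls in either direction. Without 8-cell library 1 the calls fell to 16 higher and 8 lower, without 8-cell library 2 to 55 and 31, without blastocyst library 2 to 114 and 35, and without blastocyst library 1 they were 116 and 187.

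**Figure D1:**
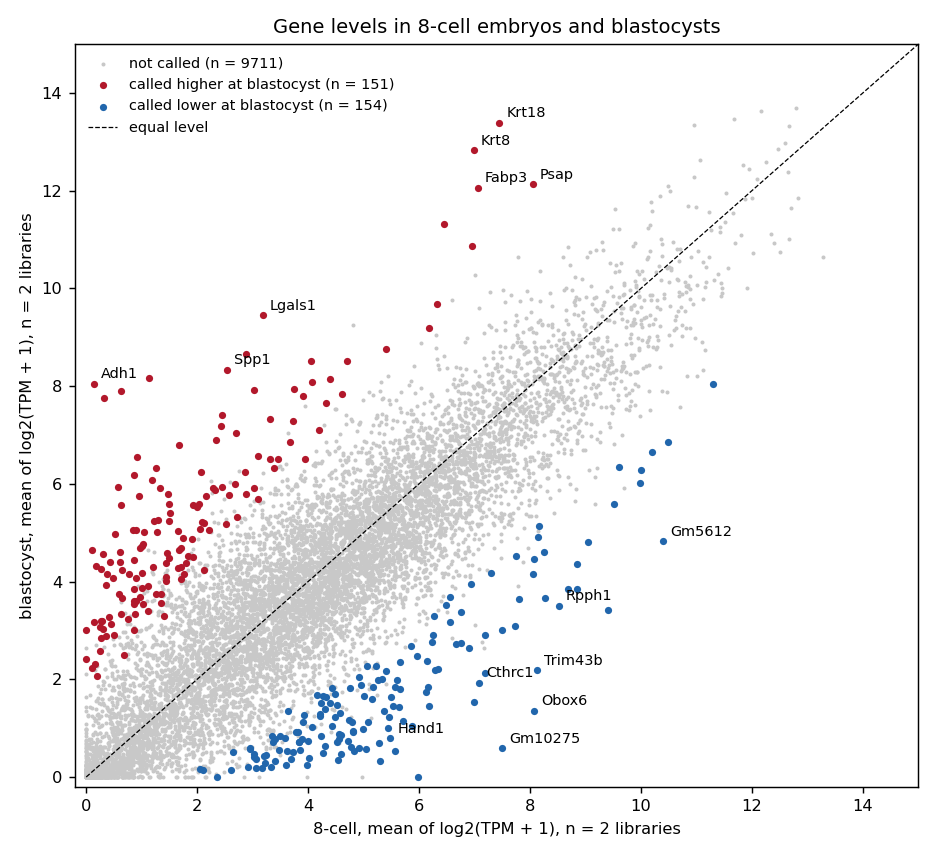
Level of each tested gene at the 8-cell stage (x axis) and at the blastocyst stage (y axis), both as the mean of log2(TPM + 1) over 2 libraries. Red points are the 151 genes called higher and blue points the 154 called lower at the blastocyst stage, grey points were not called, and the dashed line marks equal levels. Krt18, Krt8, Fabp3 and Psap stand out as red points of high level at both stages, while Obox6 and Trim43b fell from a high level to near the bottom of the scale.

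The genes with the largest rise were barely detected at the 8-cell stage. Adh1, an alcohol dehydrogenase that can oxidize retinol, was listed at 0 and 0.210 TPM in the 8-cell pair and at 577 and 121 TPM in the blastocyst pair (log2 difference 7.91 ± 0.67 SE, n = 2 against 2, limma adjusted p = 0.00011). Serpinh1, a chaperone of collagen in the endoplasmic reticulum, stood at 0 and 0.562 TPM and then at 131 and 356 TPM (7.44 ± 0.73, limma adjusted p = 0.00027). Dppa1 stood at 0.619 and 0.461 TPM and then at 503 and 113 TPM (7.29 ± 0.77, limma adjusted p = 0.00038). In these genes both blastocyst libraries were far above both 8-cell libraries, although the blastocyst libraries differed from each other severalfold.

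Dppa1 was not alone at its place in the genome. It lies on chromosome 11 at chr11:46607772-46629261 (mm10, minus strand), and the stretch chr11:46524212-46645006 held 4 tested genes, Gm12169, BC053393, Dppa1 and Gm4926, all 4 of which rose. BC053393 went from 1.82 and 0.716 TPM to 617 and 132 TPM (log2 difference 7.03 ± 0.70). Gm12169 went from 0.720 and 0.892 TPM to 82.5 and 12.2 TPM (4.20 ± 0.67), and the long non-coding Gm4926 from 0.534 and 0.516 TPM to 42.8 and 12.5 TPM (4.00 ± 0.73). All 4 were higher in blastocyst library 1 than in library 2. No other stretch of neighbouring higher genes, at most 500 kb apart, held 3 or more calls.

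The promoter windows of BC053393 and Dppa1 are shown because these 2 neighbours rose together. Each runs from 250 bases before to 50 bases after the start (RefSeq, GRCm38.p6, 5′ to 3′ on the strand of the gene). The windows shared a run of 16 bases, agtgagcagatgctat, and 15 different 10-base words. The capitals in the Dppa1 window mark the GATA motif AGATAA, which begins 69 bases before the start.
BC053393 (chr11:46571263-46571562, plus strand): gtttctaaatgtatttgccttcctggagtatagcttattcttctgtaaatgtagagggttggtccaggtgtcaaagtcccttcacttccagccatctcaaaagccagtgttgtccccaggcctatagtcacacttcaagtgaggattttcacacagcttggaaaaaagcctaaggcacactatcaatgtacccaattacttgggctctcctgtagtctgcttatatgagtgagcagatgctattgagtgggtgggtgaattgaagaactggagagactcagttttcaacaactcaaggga
Dppa1 (chr11:46629225-46629524, minus strand): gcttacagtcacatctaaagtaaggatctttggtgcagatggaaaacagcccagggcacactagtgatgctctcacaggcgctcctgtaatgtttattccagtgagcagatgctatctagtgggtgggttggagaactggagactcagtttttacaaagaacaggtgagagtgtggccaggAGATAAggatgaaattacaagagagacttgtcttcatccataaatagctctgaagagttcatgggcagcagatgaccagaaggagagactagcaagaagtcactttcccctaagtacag

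Other genes among the 15 with the largest rise differed widely in their 8-cell level. Lgals1, which encodes the sugar-binding galectin-1, rose from 5.37 and 11.9 TPM to 1369.7 and 357 TPM (log2 difference 6.27 ± 1.31). Fabp3, a fatty acid binding protein, rose from 92.7 and 188 TPM to 7424 and 2461 TPM (5.01 ± 1.02), and Fam213b rose from 3.16 and 12.0 TPM to 202 and 809 TPM (5.79 ± 0.94). Lgals1 and Fabp3 each lost their call whichever of the 4 libraries was left out, with limma adjusted p-values of 0.069 to 0.21 for Lgals1 and 0.053 to 0.22 for Fabp3. Slc15a2, a transporter of small peptides, rose from 0.354 and 0.641 TPM to 139 and 25.6 TPM (5.35 ± 0.78). Slc9a3r1, a scaffold protein of microvilli, rose from 1.34 and 3.30 TPM to 69.5 and 173 TPM (5.12 ± 0.72). Both of these started under 5 TPM. Fam25c rose from 2.25 and 0.771 TPM to 87.8 and 70.3 TPM (5.05 ± 0.69), with blastocyst libraries that lay close together. Lurap1l rose from 0.271 and 1.80 TPM to 52.8 and 164 TPM (5.64 ± 0.89), and it had been far higher at the oocyte and 1-cell stages, with means of 529 and 530 TPM.

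Among the genes of the trophectoderm epithelium, keratins and junction proteins gave the largest group of calls, with 6 of 16 tested members higher and 0 lower (1.51% of all tested genes were called higher). The median difference over the 16 was 1.98, against -0.14 over all tested genes. Krt18, which pairs with Krt8 in the keratin filaments of simple epithelia, rose from 122 and 244 TPM to 5733 and 20177 TPM (log2 difference 5.95 ± 1.04, limma adjusted p = 0.0069). Krt8 rose from 75.3 and 208 TPM to 3504 and 15040.4 TPM (5.84 ± 0.91, limma adjusted p = 0.0037). The 2 partners therefore moved by nearly the same amount, a 70.7-fold and a 65.4-fold rise of the mean, and both were higher in blastocyst library 2. Krt7, another simple-epithelial keratin, rose from 1.21 and 2.48 TPM to 24.9 and 119 TPM (4.33 ± 0.66). The adhesion molecule Epcam rose from 83.3 and 183 TPM to 1141 and 3041 TPM (3.90 ± 0.86). Lcp1, which bundles actin, rose from 1.61 and 2.03 TPM to 113 and 19.1 TPM (4.09 ± 0.70), and the desmosomal cadherin Dsg2 from 2.03 and 1.45 TPM to 27.6 and 8.09 TPM (2.56 ± 0.54). The core of the adherens junction gave small differences that were not called: 0.68 for the cadherin Cdh1, 0.34 for Ctnnb1 and 0.32 for Ctnna1. Desmoplakin, Dsp (2.32, limma adjusted p = 0.22), and Krt19 (2.12, limma adjusted p = 0.097) were not called either. Without 8-cell library 1 none of the 16 was called, while their median difference was 1.78.

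Krt8 (chr15:101996698-102004482, minus strand) and Krt18 (chr15:102028180-102032027, plus strand) are neighbours that are read away from each other. Their promoter windows are printed because the pair rose together from separate starts (RefSeq, GRCm38.p6, 5′ to 3′ on the strand of the gene). The capitals mark the GATA motif AGATAA, which begins 239 bases before the start of Krt8 and was not found in the window of Krt18. The longest run that both windows shared was 8 bases.
Krt8 (chr15:102004293-102004592, minus strand): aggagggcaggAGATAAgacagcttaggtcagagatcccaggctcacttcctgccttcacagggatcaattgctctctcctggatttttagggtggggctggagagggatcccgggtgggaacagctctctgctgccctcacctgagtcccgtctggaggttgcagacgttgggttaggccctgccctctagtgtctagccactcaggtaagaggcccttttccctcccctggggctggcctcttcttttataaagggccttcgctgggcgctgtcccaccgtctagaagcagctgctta
Krt18 (chr15:102027966-102028265, plus strand): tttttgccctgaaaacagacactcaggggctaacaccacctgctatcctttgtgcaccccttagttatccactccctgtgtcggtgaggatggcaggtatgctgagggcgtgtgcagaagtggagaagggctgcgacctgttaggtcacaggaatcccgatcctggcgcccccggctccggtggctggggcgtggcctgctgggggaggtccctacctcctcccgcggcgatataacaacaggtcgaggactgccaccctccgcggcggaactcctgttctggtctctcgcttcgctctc

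The motif AGATAA of GATA factors and the motif GGAATG of TEAD factors were sought on both strands of such windows, since factors of both families act in the trophectoderm. Windows were found for 115 of the 151 higher genes and 89 of the 154 lower genes. AGATAA was present for 12.2% of the higher genes, 12.4% of the lower genes, 7.73% of all tested genes and 12.7% of all 27025 genes with a window. GGAATG was present for 16.5%, 20.2%, 14.4% and 16.6%, in the same order. For both motifs the shares in the higher and in the lower genes were above that of all tested genes, which was not tested. The windows also differed in base composition. G and C made up 57.6% of the bases for the higher and 56.8% for the lower genes. For all tested genes they made up 59.9%, and for all genes with a window 53.8%. Whether base composition bears on the motif shares was not tested. These are matches of letters, not sites of binding.

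Of the trophectoderm transcription factors, 3 of 13 tested members rose and 1 fell (1.51% and 1.54% of all tested genes), with a median difference of 1.45. Cdx2 was at 1.96 and 4.89 TPM in the 8-cell pair and at 46.7 and 119.6 TPM in the blastocyst pair, a 24.3-fold rise of the mean (log2 difference 4.18 ± 0.58, limma adjusted p = 0.0019). Id2, a repressor of basic helix-loop-helix factors, rose from 17.8 and 13.7 TPM to 715 and 187 TPM (4.46 ± 0.93, limma adjusted p = 0.016). Klf6, a zinc finger factor, rose from 9.31 and 26.5 TPM to 205 and 354 TPM (4.00 ± 0.84, limma adjusted p = 0.017). Hand1, a factor known from trophoblast giant cells and the placenta, went the other way. It was at 36.3 and 52.7 TPM in the 8-cell embryo and at 0.725 and 0.738 TPM in the blastocyst (-4.69 ± 0.80, limma adjusted p = 0.0060), a 60.8-fold fall of the mean, after a mean of 64.1 TPM at the 4-cell stage.

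Gata3 was higher in both blastocyst libraries, at 784 and 1928 TPM against 73.2 and 223 TPM, but was not called (log2 difference 3.25 ± 1.04, limma adjusted p = 0.12). Tfap2a stood at 0.457 and 0.890 TPM and then at 5.24 and 7.50 TPM (2.13 ± 0.55, limma adjusted p = 0.051). Tead4, the partner of Yap1 in the Hippo pathway, differed by -0.59 and Tfap2c by 0.00 on the log2 scale. Gata2, Eomes, Elf5, Dlx3, Arid3a, Sox21 and Tcfap2e had no merged transcript and were not analysed here. Without 8-cell library 1 none of the 13 was called, and without 8-cell library 2 Cdx2 alone was.

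**Figure D2:**
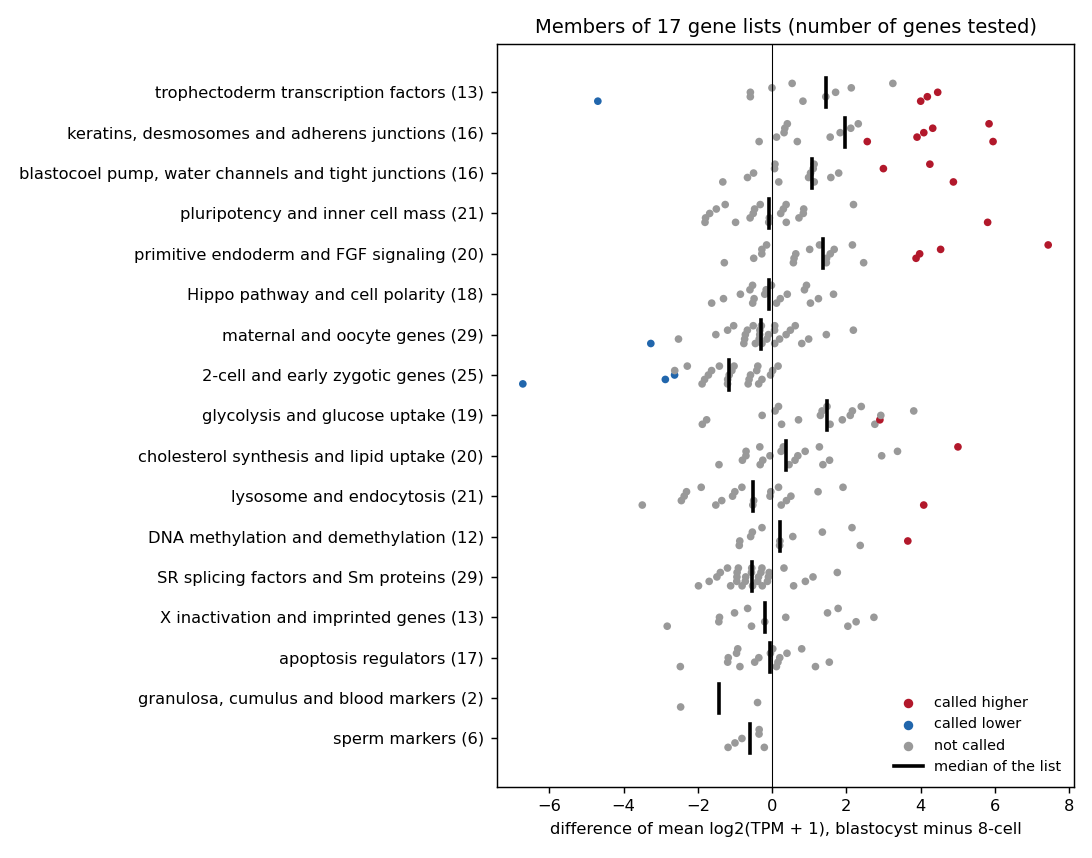
Difference of mean log2(TPM + 1), blastocyst minus 8-cell, for each tested member of 17 gene lists, with the number of members tested in brackets. Red and blue points were called higher and lower, grey points were not called, and black bars are the medians of the lists. Keratins and junctions have a median of 1.98 and the 2-cell and early zygotic genes one of -1.15.

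The genes for fluid transport and sealing of the blastocoel gave 3 calls among 16 tested members, all 3 higher (1.51% of all tested genes were), with a median of 1.07. The tight junction protein Cldn4 rose from 51.8 and 142 TPM to 1626 and 4049.7 TPM (log2 difference 4.88 ± 0.89). Cldn3 rose from 0 and 0.525 TPM to 8.61 and 56.5 TPM (4.25 ± 0.78). The water channel Aqp8 was listed at 0 in both 8-cell libraries and at 18.7 and 2.24 TPM in the blastocyst pair (3.00 ± 0.63). The water channel Aqp3 (0.98) was not called, nor were the junction scaffold Tjp1 (0.18) and Ocln (0.08). Thus 2 claudins and 1 water channel rose, while the difference of the scaffold did not pass the test. Without 8-cell library 1 none was called.

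Of the primitive endoderm and FGF signaling genes, 4 of 20 tested members rose and 0 fell (1.51% and 1.54% of all tested genes), with a median of 1.37. Besides Serpinh1, these were a transcription factor and parts of the basement membrane. Sox17 rose from 0 and 0.143 TPM to 15.0 and 37.8 TPM (log2 difference 4.54 ± 0.69, limma adjusted p = 0.0033). Lama1, a laminin chain, rose from 0.108 and 0.321 TPM to 33.0 and 9.67 TPM (3.98 ± 0.65, limma adjusted p = 0.0047), and Sparc, a collagen-binding matrix protein, from 1.22 and 2.70 TPM to 86.6 and 19.3 TPM (3.88 ± 0.75, limma adjusted p = 0.011). The 2 GATA factors of this lineage were not called, with -0.49 for Gata6 and -0.27 for Gata4, and the type IV collagens Col4a1 (0.59) and Col4a2 (0.57) were not called either. Pdgfra, Foxa2 and Sox7 had no merged transcript and were not analysed here. Without 8-cell library 1, Serpinh1 was the remaining call.

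Of the pluripotency genes, 1 of 21 tested members rose and 0 fell (1.51% and 1.54% of all tested genes). Their differences were positive for 9 and negative for 12, with a median of -0.09 that moved to -0.46 without blastocyst library 1 and to 0.52 without library 2. The called gene was Spp1, the secreted matrix protein osteopontin, which rose from 3.59 and 6.26 TPM to 842 and 123 TPM (log2 difference 5.81 ± 1.01, limma adjusted p = 0.0067). Sox2 stood at 4.05 and 4.54 TPM and then at 13.2 and 40.4 TPM (2.19, limma adjusted p = 0.088). Pou5f1 stood at 69.6 and 179.7 TPM and then at 206 and 199.7 TPM (0.85), and Nanog differed by 0.72. Klf2 (-1.79) and Dppa2 (-1.81) had the most negative differences of the list and were not called. The 2 blastocyst libraries differed from each other in these lists. The median over the list of blastocyst library 2 minus library 1 was -1.23 for the pluripotency genes, -0.83 for the primitive endoderm genes and 0.72 for the trophectoderm transcription factors, against -0.34 for all tested genes. It was -1.18 for the keratin list, in which Krt8, Krt18, Krt7 and Epcam were higher in library 2. Whether the cell composition of these pools differed was not tested.

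The 18 tested genes of the Hippo pathway and cell polarity gave 0 calls in either direction (limma). Of all tested genes 1.51% were called higher and 1.54% lower, so 0 of 18 says little about the pathway. The list had a median of -0.09 and a range of -1.63 to 1.66. Yap1 differed by -0.52, its inhibitor Amot by -0.02 (-1.80 to 1.77 with a library left out) and the polarity kinase Prkci by 0.41. The summed TPM of the list was 764 and 776 in the 8-cell pair and 621 and 855 in the blastocyst pair, so the stages overlapped.

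Genes of glucose use leaned upward, with 16 of 19 tested members positive and a median of 1.48, but 1 passed the test. In this list and the 3 that follow, 1 call each is to be read against the 1.51% of all tested genes that were called higher. The glucose transporter Slc2a3 rose from 14.2 and 21.0 TPM to 169.9 and 109 TPM (log2 difference 2.90 ± 0.74, limma adjusted p = 0.048), and it lost its call whichever of the 4 libraries was left out (limma adjusted p = 0.13 to 0.45), with a pseudocount of 0.1 (0.17) and with no filter (0.075). The glycolytic enzymes Tpi1 (3.82, limma adjusted p = 0.067) and Gapdh (2.93, limma adjusted p = 0.15) were not called. In the list of cholesterol synthesis and lipid uptake the call was Fabp3, 1 of 20, and Apoe, a lipid carrier, stood at 44.4 and 137 TPM and then at 388 and 1745 TPM without being called (limma adjusted p = 0.11). Of 21 lysosomal and endocytic genes 1 was called, and the list's median was -0.52. Psap, the precursor of the saposins, rose from 142 and 489.9 TPM to 2805 and 7209 TPM (4.09 ± 0.86, limma adjusted p = 0.017), whereas the transferrin receptor Tfrc (-3.49, limma adjusted p = 0.050) and the protease Ctsz (-2.44, limma adjusted p = 0.054) had negative differences that missed the threshold. Of 12 genes of DNA methylation and demethylation 1 was called. Tdg, a glycosylase that removes oxidized methylcytosine, rose from 1.61 and 4.46 TPM to 40.3 and 54.0 TPM (3.66 ± 0.54, limma adjusted p = 0.0028), while the maintenance methyltransferase Dnmt1 differed by 1.36 without being called.

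The SR splicing factors and Sm proteins (29 tested, 24 of them negative, median -0.55) gave no limma call. Nor did the X inactivation and imprinted genes (13 tested, median -0.20) or the apoptosis regulators (17 tested, median -0.04). Of all tested genes 1.51% were called higher and 1.54% lower, so 0 calls in lists of this size say little. Of the 29 tested maternal and oocyte genes, 11 had positive and 18 had negative differences, with a list median of -0.29. Their summed TPM was 1099 and 2198 in the 8-cell pair and 1718 and 10641 in the blastocyst pair. Between the blastocyst libraries, 25 members were higher in library 1 and 2 in library 2. In this list 1 gene was called, and it fell (1.54% of all tested genes did). This was Padi6, which encodes a protein of the oocyte cytoplasmic lattices, at 23.2 and 22.5 TPM in the 8-cell embryo and at 2.67 and 0.680 TPM in the blastocyst (log2 difference -3.26 ± 0.74, limma adjusted p = 0.027).

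The genes that fell were mostly low before the 2-cell stage. Their median level, as log2 of the mean TPM plus 1, was 0.58 at the 1-cell and 4.53 at the 2-cell stage. By stage means 89 of the 154 peaked in the 4-cell, 44 in the 8-cell and 18 in the 2-cell embryo, while 21.4%, 10.2% and 22.7% of all tested genes were highest at these stages. The blastocyst mean was under 1 TPM in 55 of them. Of the 151 higher genes, 147 were highest at the blastocyst stage (19.2% of all tested genes). A mean under 1 TPM at every earlier stage from the oocyte on was found in 24 of them. In 103 the mean was higher at the 8-cell than at the 4-cell stage. For the counts of 24 and 103 the share over all tested genes was not computed. Since the 8-cell and blastocyst levels chose these genes, the counts that involve those stages describe them and test nothing.

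**Figure D3:**
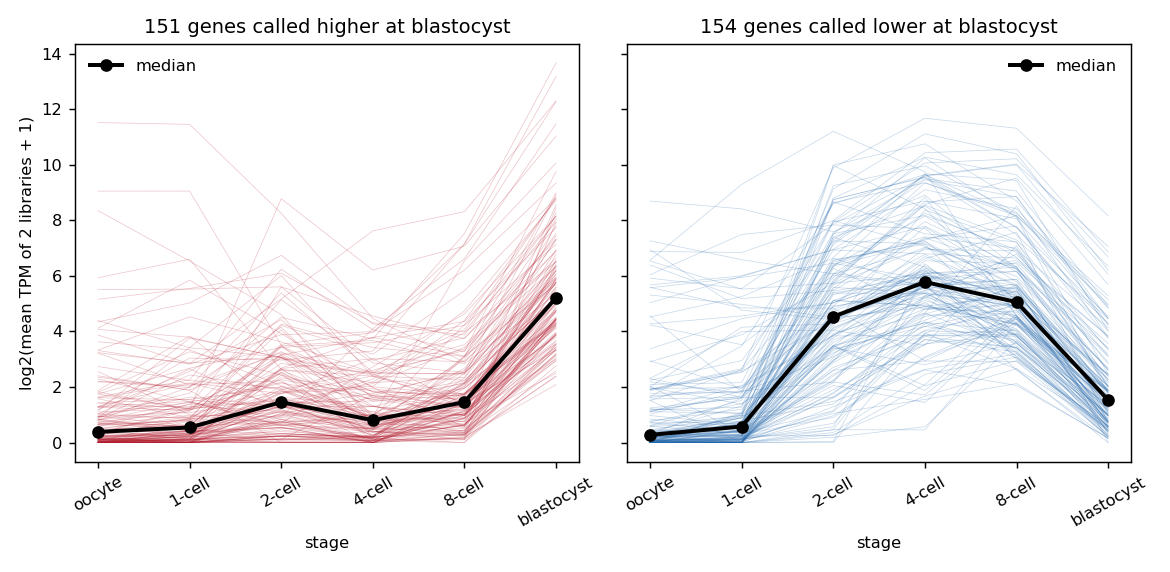
Level of the 151 genes called higher (left) and the 154 called lower (right) at the blastocyst stage, as log2 of the mean TPM of 2 libraries plus 1, from the oocyte to the blastocyst. Thin lines are genes and the black line is the median. The higher genes have a median of 1.45 at the 8-cell and 5.21 at the blastocyst stage, and the lower genes have medians of 0.58 at the 1-cell, 5.78 at the 4-cell, 5.06 at the 8-cell and 1.54 at the blastocyst stage.

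The 2-cell and early zygotic genes had 3 of 25 tested members lower and 0 higher (1.54% of all tested genes were called lower), and 23 of the 25 differences were negative, with a median of -1.15. Obox6, a homeobox gene, was at 341 and 209 TPM in the 8-cell pair and at 4.59 and 0.167 TPM in the blastocyst pair (log2 difference -6.71 ± 0.86, limma adjusted p = 0.0012), a 116-fold fall of the mean. Btg1, an antiproliferative factor, fell from 133 and 65.0 TPM to 19.6 and 7.00 TPM (-2.87 ± 0.72, limma adjusted p = 0.046), and Tdpoz4 from 8.59 and 5.94 TPM to 0.705 and 0.0250 TPM (-2.62 ± 0.67, limma adjusted p = 0.048). Obox6 was the call that held with any 1 of the 4 libraries left out. The Zscan4 genes, which mark the 2-cell stage, differed by -0.38 to 0.02. Many members of this list have near-identical copies, so their reads may be split among them.

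The 15 genes with the largest fall included protein-coding genes of diverse known roles and the RNA of an enzyme. The ubiquitin ligase family gene Trim43b fell from 360.0 and 213 TPM to 7.62 and 1.39 TPM (log2 difference -5.94 ± 0.82), and it has close relatives such as Trim43c, which also fell. Cthrc1, a secreted collagen-repeat protein, fell from 127 and 143 TPM to 1.63 and 4.51 TPM (-5.15 ± 0.83). Tnfrsf19, a receptor of the tumor necrosis factor family, fell from 41.6 and 35.0 TPM to 0.267 and 0.229 TPM (-4.97 ± 0.61). Hcrt, the precursor of the neuropeptide hypocretin, fell from 52.2 and 62.7 TPM to 0.667 and 1.56 TPM (-4.82 ± 0.65). Vpreb3, known from pre-B cells, fell from 53.2 and 40.6 TPM to 1.10 and 0 TPM (-5.04 ± 0.65). In each of these 5 genes the 8-cell libraries agreed within a factor of 2 and both blastocyst libraries were below 10 TPM. Rpph1, the RNA of ribonuclease P, fell from 353 and 376 TPM to 4.98 and 20.6 TPM (-5.01 ± 0.80). Its stage means were 7.50 TPM at the 2-cell and 24.3 TPM at the 4-cell stage. It is a short gene (chr14:50807449-50807767), and the paper names short and non-poly(A) transcripts as a limit of its long-read method. How far this bears on the level of Rpph1 was not tested. Outside the 15, Cdk2ap1, a binding partner of the kinase CDK2, fell from 544 and 516 TPM to 41.6 and 17.4 TPM (-4.24 ± 0.71).

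The remaining genes of the 15 are predicted genes or gene copies. Gm10275 fell the most, from 251 and 128 TPM to 1.27 and 0 TPM (log2 difference -6.90 ± 0.74), Gm11517 from 819.9 and 560.0 TPM to 27.7 and 2.93 TPM (-6.00 ± 0.90) and Gm5612 from 1429 and 1255 TPM to 141 and 4.64 TPM (-5.57 ± 1.11). Gm6139, AC133103.5, Gm5435, 2310040G24Rik and Gm12621 had differences of -5.98 to -4.83. Pseudogenes made up 21 of the 154 lower genes (13.6%) and 1 of the 151 higher genes, while they were 3.52% of all tested genes. Reads of pseudogenes can be shared with their parent genes, so these levels are uncertain. A cluster of such copies lay at chr11:60591721-60693075 (mm10), where 6 of 11 tested genes fell, Gm12621, Gm12627, Gm12613, Gm12614, Gm12625 and Gm12617, and all 11 had a negative difference. A second stretch, chr1:85105946-85598817, held 4 tested genes, of which Sp110, Gm16026 and A530040E14Rik fell. All 3 tested genes of an unplaced scaffold of chromosome 1, AC133103.4, AC133103.5 and AC133103.1, fell as well.

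At the level of single merged transcripts, 168 of 20250 (0.83%) were higher and 259 (1.28%) were lower in the blastocyst (limma, adjusted p under 0.05). These calls lay in 331 genes, of which 97 had not been called as whole genes, and 37 called transcripts lay in no annotated gene. No gene had one transcript called higher and another called lower. The direction depended on the kind of transcript. Among transcripts with the same introns as a GENCODE transcript, 113 were higher and 55 lower of 7447. Among new isoforms, whose introns overlap in part with those of a GENCODE gene, 31 were higher and 131 lower of 4956, or 2.64% lower. New loci that overlap no gene had 2 higher and 19 lower of 1996. Transcripts that overlap a gene in another way had 2 higher and 44 lower of 2477. These share no intron with an annotated transcript of the same strand, and they include transcripts within introns or on the opposite strand. Without blastocyst library 2, which held fewer transcripts, the new isoforms had 28 higher and 23 lower, and without blastocyst library 1 they had 24 higher and 144 lower, so the excess of lower new isoforms was not seen without library 2. The same held for the new loci, with 3 higher and 1 lower without library 2 against 2 and 43 without library 1. Transcripts that overlap a gene in another way likewise had an excess of lower calls without library 1 but not without library 2.

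**Figure D4:**
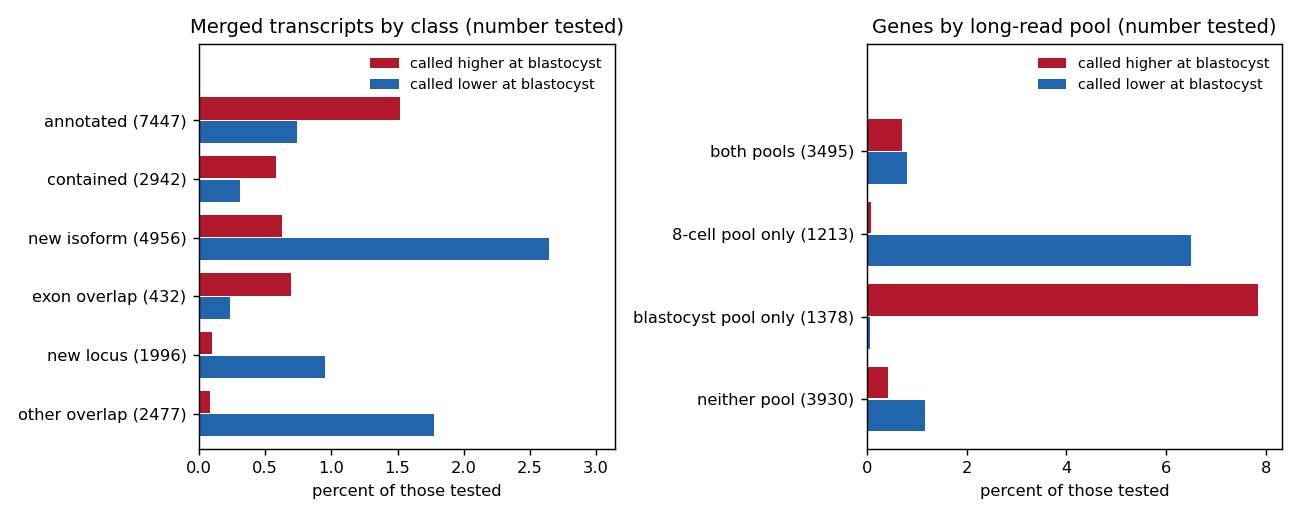
Percent of the tested merged transcripts called higher (red) or lower (blue) at the blastocyst stage by kind of transcript (left), and percent of the tested genes called higher or lower by the long-read pool in which the gene had a transcript (right), with numbers tested in brackets. New isoforms were called lower in 2.64% of cases, and genes with long reads in the blastocyst pool alone were called higher in 7.84%.

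Both new loci that rose were single-exon transcripts. The transcript TCONS_00002109 at chr10:42052559-42053395 (mm10, minus strand) was at 2.64 and 3.63 TPM in the 8-cell pair and at 39.3 and 36.5 TPM in the blastocyst pair (log2 difference 3.24 ± 0.49, limma adjusted p = 0.0088), and its stage mean was under 1 TPM from the oocyte to the 4-cell stage. TCONS_00013715 at chr4:34393442-34393667 was listed at 0 in both 8-cell libraries and at 38.2 and 7.35 TPM in the blastocyst pair, but it had a mean of 1961 TPM at the 2-cell stage. The largest fall at a new locus was that of the 3-exon TCONS_00006056 at chr14:18463592-18469950 (plus strand), from 88.8 and 54.8 TPM to 1e-06 and 0.0676 TPM (-6.10 ± 0.73, limma adjusted p = 0.0031). It had no TPM in the oocyte and 1-cell libraries and a mean of 17.6 TPM at the 4-cell stage. The other named losses, TCONS_00010813 on an unplaced scaffold of chromosome 1, TCONS_00009513 at chr18:6295408-6308864, TCONS_00013877 at chr4:97292334-97292604 and TCONS_00006617 at chr14:57417270-57419482, had differences of -4.62 to -3.75.

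Isoform choice within genes was tested on 7739 isoform shares in 2777 genes, where a share is the TPM of one transcript as a percent of its gene's TPM. Of these, 1 share passed the test with a difference of more than 10 percentage points, and it was lower in the blastocyst (0.0129% of the shares tested lower, 0% higher). An unadjusted p under 0.05 was found for 752 shares. The called isoform, TCONS_00006575 of Hnrnpc (chr14:52073539-52104052, mm10, minus strand), made up 29.3% and 30.6% of the gene in the 8-cell pair and 1.63% and 0.00225% in the blastocyst pair (log2 ratio to the other isoforms -4.62 ± 0.44, limma adjusted p = 0.014). Hnrnpc encodes a protein that binds nascent pre-mRNA in the nucleus. The isoform fell from 74.4 and 72.1 TPM to 4.00 and 0.00149 TPM, whereas TCONS_00006576, which starts 6 bases away, kept 22.4% and 24.0% at the 8-cell and 21.7% and 28.2% at the blastocyst stage. With a replicate left out, the adjusted p of the called share was 0.019 to 0.29, and the share was called without blastocyst library 1 but not without any of the other 3. It was also not called with a pseudocount of 0.1 (limma adjusted p = 0.064) or with the replicate number as a block (0.057).

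The called Hnrnpc isoform joins a longer form of a coding exon with a cassette exon of 26 bases at chr14:52098015-52098040. The longer exon, chr14:52081789-52081903, is printed on the minus strand because its last 39 bases, in capitals, separate it from the shorter form. It lies within the coding sequence.
Hnrnpc exon: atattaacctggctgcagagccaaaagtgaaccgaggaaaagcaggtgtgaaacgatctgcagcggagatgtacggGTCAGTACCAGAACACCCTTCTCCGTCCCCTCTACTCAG
Summed over the 6 of 14 isoforms that carry it, the longer exon made up 45.6% and 42.6% of the gene in the 8-cell pair and 33.7% and 31.1% in the blastocyst pair. The 6 isoforms with the cassette exon made up 68.5% and 68.6% and then 47.6% and 48.1%. Both parts were thus still present in the blastocyst in other isoforms. These sums were not tested.

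In a fit that gave each stage its own spread, which was added after the data were seen, 10 shares of 7 genes were called, among them pairs of isoforms of Cdk2ap1, Cttn and Cyba. These differ by where transcription starts or by a coding exon, and their junctions are shown so that the isoforms can be told apart. Each junction is given as the last 12 bases of the upstream exon followed by the first 12 of the downstream exon in capitals (mm10, minus strand for both genes).
Cdk2ap1 TCONS_00016354, from the upstream start: ggactgcagacgGAAGTGTCCACT
Cdk2ap1 TCONS_00016353, from the downstream start: ccctcaacgccgGAAGTGTCCACT
Cttn TCONS_00019369, exon skipped: aatcccaaaaagACTATGCCAAAG
Cttn TCONS_00019368, into the extra exon: aatcccaaaaagACTATAAGACTG
Cttn TCONS_00019368, out of the extra exon: agtcccagcaagACTATGCCAAAG

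In Cdk2ap1 the starts of the 2 isoforms lie 8665 bases apart and both join the same downstream exon. The isoform of the upstream start went from 539.5 and 510.1 TPM to 27.2 and 1.89 TPM, and it was called lower as a transcript (log2 difference -5.86 ± 0.94, limma adjusted p = 0.012). The isoform of the downstream start was at 4.45 and 5.92 TPM and then at 14.5 and 15.5 TPM. Its share thus went from 0.818% and 1.15% to 34.8% and 89.2% (limma adjusted p = 0.056, and 0.031 with the weighted spread). The change of share came with the loss of the upstream isoform more than with the gain of the other.

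Cttn encodes cortactin, which binds actin at the cell cortex. Its isoforms differ by a 111-base coding exon at chr7:144450978-144451088. The exon is printed here because the isoform with it was higher in the blastocyst than in the 8-cell embryo.
Cttn extra exon: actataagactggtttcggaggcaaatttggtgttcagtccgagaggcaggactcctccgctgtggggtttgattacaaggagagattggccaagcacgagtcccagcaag
The isoform with this exon, TCONS_00019368, was at 0.761 and 3.09 TPM in the 8-cell pair and at 44.2 and 22.4 TPM in the blastocyst pair (log2 difference 3.60 ± 0.71, limma adjusted p = 0.024 as a transcript). Its share went from 1.49% and 5.51% to 50.8% and 63.4% (limma adjusted p = 0.072, and 0.041 with the weighted spread). The isoform without it stood at 50.3 and 53.1 TPM and then at 42.8 and 12.9 TPM. Here the groups did not overlap in share, and the gain of the longer isoform carried the change.

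Cyba encodes a membrane subunit of the NADPH oxidase, and its 2 isoforms start 4315 bases apart. The new isoform TCONS_00020487 fell from 80.7 and 50.5 TPM to 4.48 and 1.15 TPM (log2 difference -4.24 ± 0.70, limma adjusted p = 0.013 as a transcript), while the annotated TCONS_00020488 was at 42.6 and 36.4 TPM and then at 41.7 and 86.7 TPM. The annotated isoform therefore made up 34.5% and 41.9% of the gene and then 90.3% and 98.7% (limma adjusted p = 0.086, and 0.041 with the weighted spread). New isoforms of Marc2 (TCONS_00001420, 53.4 and 28.2 TPM and then 0 and 0.580 TPM), Mprip (TCONS_00002755, 8.12 and 7.73 TPM and then 0.381 and 0 TPM) and Arhgap8 (TCONS_00007042, 4.95 and 5.30 TPM and then 0 in both) were also called in share with the weighted spread (limma adjusted p = 0.041, 0.035 and 0.035), but not with the shared one (0.072, 0.056 and 0.072).

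**Figure D5:**
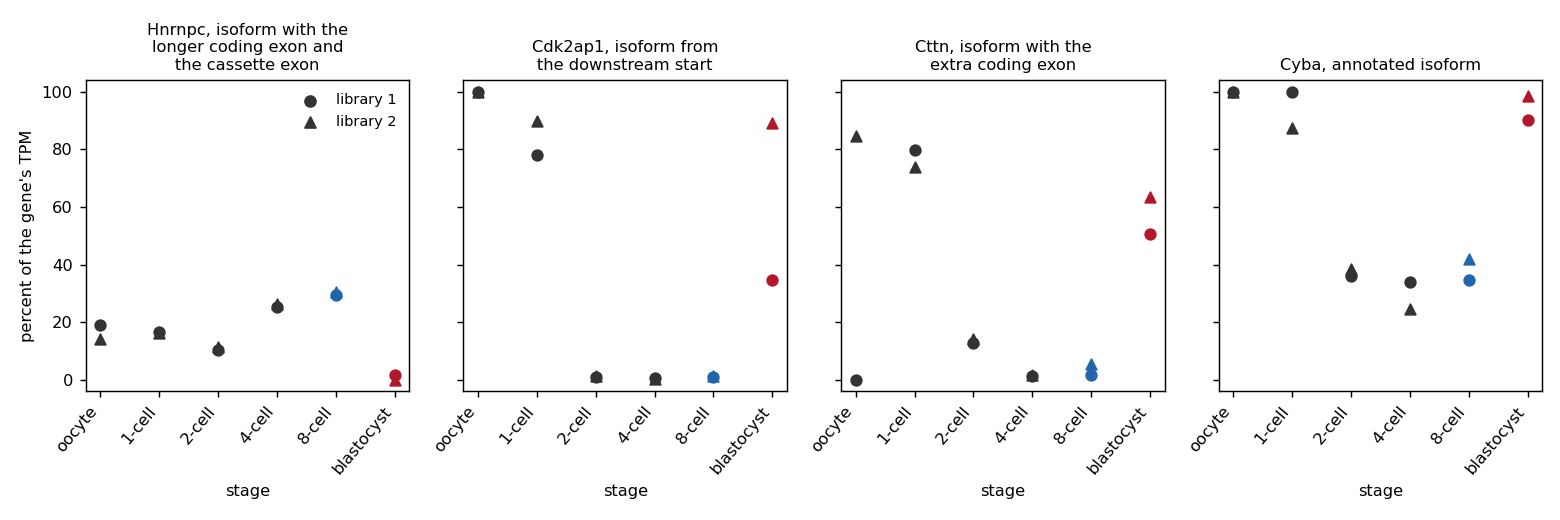
Share of an isoform in the TPM of its gene, in percent, for 1 isoform each of Hnrnpc, Cdk2ap1, Cttn and Cyba in 2 libraries per stage from the oocyte to the blastocyst. Circles are library 1 and triangles library 2, blue marks the 8-cell and red the blastocyst libraries. The Hnrnpc isoform is at 29.3% and 30.6% at the 8-cell and under 2% at the blastocyst stage, and the Cdk2ap1 isoform of the downstream start is at 34.8% and 89.2% at the blastocyst stage.

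Over the earlier stages, the share of the Cdk2ap1 isoform of the downstream start was 100% in both oocyte libraries and 78.0% and 89.9% in the 1-cell libraries, and 0.244% to 1.18% in the 2-cell and 4-cell libraries. The annotated Cyba isoform made up 87.4% to 100% in the oocyte and 1-cell libraries and 24.4% to 38.5% in the 2-cell and 4-cell libraries. In Cyba both blastocyst shares lay within the range of the oocyte and 1-cell libraries. In Cdk2ap1 this held for blastocyst library 2 at 89.2%, whereas library 1 at 34.8% lay between the early and the 2-cell to 8-cell values. The levels behind the early shares were low, with at most 4.26 TPM for Cdk2ap1 and 1.74 TPM for Cyba in these isoforms. The Cttn isoform with the extra exon made up 0% and 84.8% in the oocyte libraries and 79.9% and 73.8% in the 1-cell libraries. Its level there was at most 2.37 TPM, and its share was 1.44% to 14.2% in the 2-cell and 4-cell libraries.

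The long-read pools held 8831 transcripts of 4745 genes at the 8-cell stage and 8409 transcripts of 4928 genes at the blastocyst stage. With 1 pool per stage there is no replicate, and the intervals given are Wilson 95% intervals that cover counting error alone. A match in the other pool was found for 61.2% (60.2 to 62.2%) of the 8-cell transcripts. For the blastocyst transcripts it was 62.1% (61.0 to 63.1%). Matched transcripts had the same introns, or the introns of either were a contiguous run of those of the other. Single-exon transcripts were matched by containment or overlap. The match was closest for annotated transcripts, at 79.7% and 76.8%, and looser for new isoforms, at 36.8% and 44.1%, and for new loci, at 20.9% and 19.1%. New isoforms made up 16.1% of the 8-cell and 11.5% of the blastocyst transcripts. The median length was 1268 bases at the 8-cell and 1108 bases at the blastocyst stage. The blastocyst pool therefore held slightly fewer, shorter and more often annotated transcripts. The paper combined separate sequencing runs for the blastocyst. For each of them it lists a shorter mean subread length but a larger insert size than for the 8-cell run. Whether the runs bear on the differences between the pools was not tested.

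Genes with long reads in one pool alone moved mostly toward that stage in the short reads, which come from the same cDNA. Of 1378 tested genes with long-read transcripts in the blastocyst pool alone, 108 were called higher (7.84%) and 1 lower, with a median difference of 0.64. Of 1213 with long-read transcripts in the 8-cell pool alone, 79 were called lower (6.51%) and 1 higher, with a median of -0.74. Of 3495 with transcripts in both pools, 25 were higher and 28 lower. Presence in one pool did not by itself mean a difference in level. The most abundant genes of the 8-cell pool alone were Hist1h2ao, Rpl38, Snrpf, Gm7536 and Gm4617, and 0 of these 5 was called by limma. Hist1h2ao, a histone H2A gene with near-identical copies, stood at 6144 and 8097 TPM in the 8-cell pair and at 6214 and 27741 TPM in the blastocyst pair. Of the most abundant genes of the blastocyst pool alone, Gm8203, Gm13256, Oaz1-ps, Gm9843 and Gm3724, Gm13256 was called, at 45.0 and 139 TPM and then at 381 and 1753 TPM. The isoforms of Cdk2ap1 from the downstream start, of Cttn with the extra exon and of Cyba as annotated had long-read transcripts in the blastocyst pool and not in the 8-cell pool, and the new isoforms of Cyba, Marc2 and Mprip in the 8-cell pool and not in the blastocyst pool. The Hnrnpc isoform was present in both.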

How the data were processed

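Embryos were pooled by stage and their cDNA was sequenced on the PacBio Sequel (1 pool per stage) and the Illumina NovaSeq (2 libraries per stage). The authors assembled the long reads on mm10, collapsed them within a stage, merged all stages, and deposited exon coordinates and salmon TPM values for each merged transcript, which were used as deposited. Transcripts were assigned to GENCODE vM21 genes by same-strand exon overlap and their TPM summed by gene. Levels with at least 1 TPM in at least 2 of the 12 libraries from oocyte to blastocyst were tested as log2(TPM + 1) with limma 3.58.1 in R 4.3.3 (eBayes with a trend). The stage was the only term, and all stages shared 1 estimate of the spread. The pseudocount of 1 understates changes of low genes. P-values were adjusted by Benjamini-Hochberg over all genes, transcripts or shares, called under 0.05, and ± marks a standard error. Shares were tested as the log2 ratio of a transcript to the rest of its gene, in genes of at least 5 TPM. The paper describes 2 separately collected batches of embryos at each stage, with part of the cDNA from each batch used for short reads. The labels name no batch, and p-values measure only the spread between these samples. The 8-cell libraries are numbered in opposite ways in 2 places, and their titles were followed. Long-read transcripts were matched by identical or contained chains of introns, and single exons by containment or 80% reciprocal overlap. The comparison and the 17 gene lists were chosen with earlier results of these data known. Besides list members, the text names the top 15 called genes in each direction by size of change, up to 5 new loci each way, the isoforms of called shares, and the 5 most abundant genes with long reads at one stage alone. Some genes that these rules name are not reported here. Other settings were the pseudocount, the filter, the normalization, the 4 libraries alone, a replicate block, annotated transcripts alone, the locus as the gene, and each library left out. Scripts were tested on simulated data.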

Additional observations from a re-analysis of the deposited data

How the results depend on the processing

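No called named gene or share changed sign under any alternative run. In every called gene both libraries of one stage lay above both of the other. Leaving out a library or changing the pseudocount therefore could not change the sign of such a gene, and its stability there tests nothing. Uncalled members near 0 did change sign, such as Cdh1 (-0.40 to 1.77 with a library left out). Genes called higher (151) numbered 84 with a pseudocount of 0.1, 260 with quantile normalization, 16 to 116 with each library left out in turn, and 263 with a spread weighted by stage, which was added after seeing the data. Genes called lower (154) numbered 8 to 187 with a library left out and 301 with the weighted spread. Transcripts called higher (168) numbered 58 with a pseudocount of 0.1, 410 with quantile normalization and 4 to 140 with a library left out, and transcripts called lower (259) numbered 4 to 327 with a library left out and 488 with the weighted spread. A fit on the 4 libraries alone gave 0 calls of either direction for genes, transcripts and shares. Shares called higher (0) and lower (1) numbered 2 and 3 with a pseudocount of 0.1, 3 and 7 with the weighted spread, and 0 to 5 and 0 to 6 with a library left out. With the replicate number as a block, 121 genes were higher and 114 lower, 110 transcripts higher and 137 lower, and 0 shares were called. The numbers were not taken to pair the libraries, because the deviations of same-numbered 8-cell and blastocyst libraries correlated at 0.48 but those of all 15 pairs of stages at -0.55 to 0.48, with 5 over 0.1. Of the 30 genes with the largest changes, 12 stayed called without 8-cell library 1, 25 without 8-cell library 2, 27 without blastocyst library 1, 22 without blastocyst library 2, and 30 with the block, quantile normalization or a filter of 5 TPM. Identical introns alone matched 51.1% of the 8-cell and 52.3% of the blastocyst long-read transcripts, multi-exon transcripts alone 67.3% and 69.5%, and any shared intron 71.4% and 69.3%. The cause of these shifts was not tested. The TPM values hold no read counts, so no floor was set for low values and what depth limits was not computed.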
